A study of Mus musculus with 3 samples.

Results

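CpG-poor promoters that were open in all 3 libraries of mouse natural killer cells numbered 357 of 20807 autosomal protein-coding promoters. They were chosen by measured values: the gene's own 5′ end with 500 bp on each side had a CpG observed/expected ratio below 0.3, and a peak of the larger peak list overlapped that window in each library. Of 6736 CpG-poor promoters, 5.30% were open in all 3 libraries, against 48.3% of all promoters and 81.5% of the 9819 CpG-rich promoters, those with a ratio of 0.6 or more. The opening, its rank and the CpG ratio are therefore descriptions and were not tested. The 8002 CpG-rich promoters open in all 3 libraries serve below as the comparison.

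Most mammalian genes that many tissues use start in a CpG island, a stretch rich in CG dinucleotides that is usually unmethylated and accessible in most cell types. CpG-poor promoters are more often methylated and closed, and are opened in the tissues that use the gene by factors bound to the promoter or to enhancers nearby. Natural killer cells are lymphocytes that kill infected or transformed cells by releasing perforin and granzymes, and RUNX, ETS and T-box factors are known regulators of their genes. In DNase-seq, the nuclease DNase I cuts accessible DNA, a peak marks a run of frequent cuts, and a footprint is a short stretch inside it that is cut less than its flanks, as under a bound protein.

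The cells were primary natural killer cells of adult male B6CASTF1/J mice, the first-generation offspring of C57BL/6 and CAST parents, aged 2 months, with no treatment named. The 3 libraries are biological replicates 1, 2 and 3 of 1 group. They come from separate biosamples under 1 donor label, and no sort or gate is named. Whether they are separate animals is not stated, and any p-value or SD measures only the spread between these libraries. Replicate 1 stood apart, with 40484 peaks and 101990 footprints, against 84564 and 239483 in replicate 2 and 81854 and 222990 in replicate 3. Read depth is unknown. Signal was therefore given as a percentile among all peaks of its own library, which is 100 for the strongest peak. The peak list of replicate 1 is the shortest, so the same place from the top gives a lower percentile there. A lower percentile in replicate 1 is thus not read as a less open promoter. In a mixture of cells, fewer cells with an open promoter and a less open promoter in each cell cannot be told apart.

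Footprints that all 3 libraries placed over the same 6 or more bases, called shared footprints here, were found in 144 of the 357 promoters (40.3%), against 87.9% of the CpG-rich open promoters. The sequences below are the 200 bases upstream of the 5′ end, written 5′ to 3′ on the gene's strand, from the RefSeq copy of GRCm38 (mm10). Capitals mark shared footprints. They are the C57BL/6J letters, and the CAST allele was not analysed here. The first set holds promoters in which the RUNX letters TGTGG, on either strand, lay for at least 50% of their length in a shared footprint.

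Prf1 (chr10:61297633-61297832, plus strand): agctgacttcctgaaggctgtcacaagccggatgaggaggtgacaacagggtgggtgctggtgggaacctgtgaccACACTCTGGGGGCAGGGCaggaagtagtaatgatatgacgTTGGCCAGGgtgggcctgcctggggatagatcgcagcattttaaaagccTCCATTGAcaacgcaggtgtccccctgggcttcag
Gzmb (chr14:56262261-56262460, minus strand): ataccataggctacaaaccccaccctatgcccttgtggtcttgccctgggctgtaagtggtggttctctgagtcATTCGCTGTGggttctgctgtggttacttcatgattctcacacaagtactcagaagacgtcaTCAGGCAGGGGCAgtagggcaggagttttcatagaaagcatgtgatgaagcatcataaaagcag
Lax1 (chr1:133690109-133690308, minus strand): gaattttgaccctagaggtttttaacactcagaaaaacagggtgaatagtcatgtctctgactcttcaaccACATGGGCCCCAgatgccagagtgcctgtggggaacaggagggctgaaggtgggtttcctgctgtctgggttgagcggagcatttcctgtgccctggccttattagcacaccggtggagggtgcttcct
Gimap8 (chr6:48647034-48647233, plus strand): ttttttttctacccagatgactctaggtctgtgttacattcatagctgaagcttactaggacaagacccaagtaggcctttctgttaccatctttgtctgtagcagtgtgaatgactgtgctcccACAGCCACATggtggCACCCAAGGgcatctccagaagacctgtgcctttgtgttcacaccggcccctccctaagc
Abcb8 (chr5:24393463-24393662, plus strand): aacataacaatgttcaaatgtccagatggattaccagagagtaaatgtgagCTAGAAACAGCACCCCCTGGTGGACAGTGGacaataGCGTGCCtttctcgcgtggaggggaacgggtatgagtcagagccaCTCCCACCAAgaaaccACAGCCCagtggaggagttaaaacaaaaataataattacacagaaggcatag
AI467606 (chr7:127091159-127091358, plus strand): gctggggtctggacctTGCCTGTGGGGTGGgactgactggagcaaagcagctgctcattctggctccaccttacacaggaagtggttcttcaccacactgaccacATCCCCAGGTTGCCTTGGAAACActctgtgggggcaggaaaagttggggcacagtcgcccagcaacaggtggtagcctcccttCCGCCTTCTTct

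Prf1 encodes perforin, the pore-forming protein, and Gzmb granzyme B, the protease delivered through the pores. In Prf1 the RUNX letters ran from 126 to 122 bp upstream, at the edge of an 18-base stretch. In Gzmb they ran from 120 to 116 bp upstream, with 4 of 5 letters in capitals. Lax1, an adaptor that restrains lymphocyte receptor signals, had them from 131 to 127 bp. Gimap8, of the lymphocyte GTPase family Gimap, had them at 77 to 73 bp and again at 71 to 67 bp. Abcb8, a mitochondrial transporter, had them at 54 to 50 bp, and AI467606, the highest-ranked promoter of all, had them whole at 180 to 176 bp. In all, 14 of the 357 promoters (3.92%) had RUNX letters in a shared footprint, against 9.41% of the CpG-rich open promoters. The letters alone were common: 91.4% of all promoter windows of 1001 bp held them at least once.

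The second set shows ETS letters (GGAAG on either strand) in a shared footprint at Ptpn7 and Ccl4, and the TATA boxes (TATAAA) of the chemokine promoters Ccl4 and Ccl5.

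Ptpn7 (chr1:135132500-135132699, plus strand): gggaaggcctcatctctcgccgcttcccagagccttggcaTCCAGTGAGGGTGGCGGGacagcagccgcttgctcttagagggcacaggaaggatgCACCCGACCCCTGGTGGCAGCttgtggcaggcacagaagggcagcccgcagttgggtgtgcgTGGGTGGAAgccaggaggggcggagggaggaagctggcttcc
Ccl4 (chr11:83662384-83662583, plus strand): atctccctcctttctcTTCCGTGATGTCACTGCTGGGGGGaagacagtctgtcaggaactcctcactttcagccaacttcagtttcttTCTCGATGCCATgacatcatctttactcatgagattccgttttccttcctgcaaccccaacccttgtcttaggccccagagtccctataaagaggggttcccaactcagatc
Ccl5 (chr11:83530519-83530718, minus strand): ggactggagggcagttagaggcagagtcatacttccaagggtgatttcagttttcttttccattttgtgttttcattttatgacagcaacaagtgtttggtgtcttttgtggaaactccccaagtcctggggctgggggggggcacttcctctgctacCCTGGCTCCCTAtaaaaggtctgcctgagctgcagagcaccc

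Ptpn7, a tyrosine phosphatase of blood cells that acts on MAP kinases, had ETS letters from 37 to 33 bp upstream, with 4 of 5 letters in capitals. The printed window of Ptpn7 overlaps an exon of a noncoding transcript of its neighbour Ptprv. In Ccl4 the ETS letters ran from 185 to 181 bp upstream, at the edge of a 24-base stretch. The TATA box of Ccl4 lay 27 to 22 bp upstream with no letter in a shared footprint, and that of Ccl5 at 32 to 27 bp with 2 of 6 letters in one. ETS letters lay in a shared footprint of 10 promoters (2.80%), against 24.8% of the CpG-rich open promoters, and 97.4% of all windows of 1001 bp held them.

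The third set is the MHC class II genes H2-Aa, H2-Eb1 and H2-Ab1, which present peptides to helper T cells and whose promoters are known for an X box and a CCAAT-holding Y box.

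H2-Aa (chr17:34287824-34288023, minus strand): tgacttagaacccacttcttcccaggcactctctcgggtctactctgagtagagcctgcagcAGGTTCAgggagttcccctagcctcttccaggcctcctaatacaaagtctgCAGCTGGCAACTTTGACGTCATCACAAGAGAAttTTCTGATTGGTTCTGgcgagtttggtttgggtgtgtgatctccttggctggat
H2-Eb1 (chr17:34305667-34305866, plus strand): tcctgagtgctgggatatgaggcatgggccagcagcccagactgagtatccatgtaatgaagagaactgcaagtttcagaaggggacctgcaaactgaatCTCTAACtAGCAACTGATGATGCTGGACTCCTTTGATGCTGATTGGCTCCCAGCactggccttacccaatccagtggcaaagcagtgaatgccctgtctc
H2-Ab1 (chr17:34257489-34257688, plus strand): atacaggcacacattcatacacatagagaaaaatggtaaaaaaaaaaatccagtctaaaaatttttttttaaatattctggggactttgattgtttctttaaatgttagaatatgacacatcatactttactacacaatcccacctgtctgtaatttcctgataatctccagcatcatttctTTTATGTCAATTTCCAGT

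In H2-Aa a 32-base stretch held the cyclic AMP response element letters TGACGTCA at 74 to 67 bp, and a 15-base stretch held CCAAT, read on the other strand, at 48 to 44 bp. It was the only one of the 357 promoters with the response element in a shared footprint. The element holds a CG, and the promoters were chosen for a low CpG ratio. Of the 357 windows 0.84% held it, against 5.81% of the CpG-rich open ones. H2-Eb1 held CCAAT at 59 to 55 bp inside a 46-base stretch, the longest shared footprint of all 253. In H2-Ab1 the peak centre, as the mean of the 3 libraries, lay 85 bp downstream of the annotated 5′ end. The 18 bases next to that end were in a shared footprint. The window of H2-Eb1 overlaps an exon of the antisense transcript Gm20513. Of the 357 promoters, 3 had CCAAT in a shared footprint: H2-Aa, H2-Eb1 and Tpcn2, the gene of a lysosomal ion channel.

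The share of promoters open in all 3 libraries rose with each class of the CpG ratio up to 1.0, and promoters above 1.0 were not classed. It was 1.43% below 0.1, 4.60% from 0.1 to 0.2 and 9.52% from 0.2 to 0.3, against 88.1% from 0.9 to 1.0. Replicate 1 had a peak at 376 CpG-poor promoters, replicate 2 at 675 and replicate 3 at 674. Replicate 1 thus limited the number: with replicates 2 and 3 alone it would hold 587 promoters (8.71%), without replicate 2 it would hold 364 and without replicate 3 it would hold 359. Within the 357 the median CpG ratio was 0.210, against 0.147 in the 5964 CpG-poor promoters closed in all libraries, and the median GC content 50%, against 44.5% in the closed promoters and 60.8% in the CpG-rich open ones. At the limit of 0.3, the promoters just inside were Lat (0.2999), Slc25a45 (0.2997), Rgs1 (0.2995), Cpq (0.2991) and Dnajc14 (0.2989). Just outside lay Dock2 (0.3001), Zfp937 (0.3001), 3300002I08Rik (0.3003), Gimap6 (0.3006) and Gimap1 (0.3006), with mean percentiles of 37.4 to 85.7, against 53.9 to 81.6 inside.

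**Figure D1:**
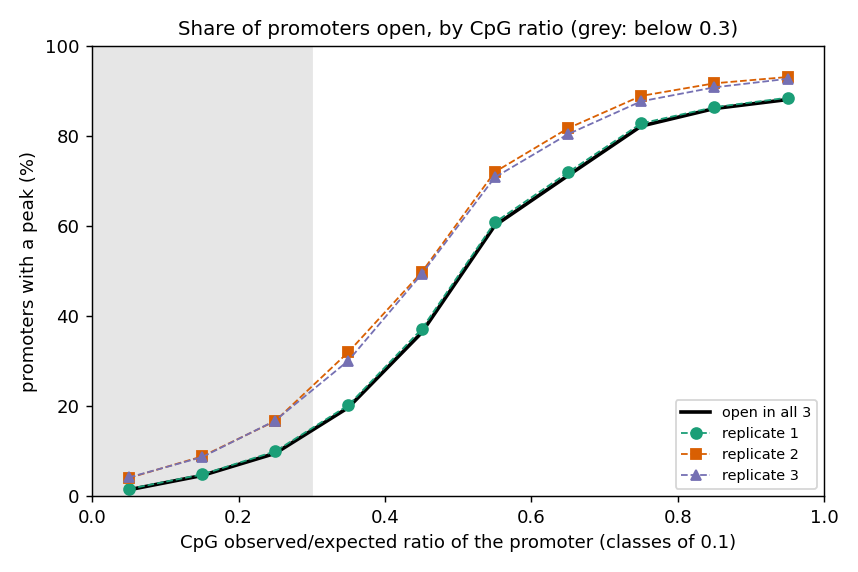
Share of autosomal protein-coding promoters with a peak (y axis, percent) by class of CpG observed/expected ratio (x axis), for each library (dashed) and for all 3 together (black). The black line follows replicate 1 and reaches 9.52% in the last grey class, against 88.1% in the class from 0.9 to 1.0.

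The mean percentile of the 357 promoters ran from 6.50 to 97.5, with a median of 69.1. It was 75 or more in 132 of them and below 25 in 12. AI467606 led with percentiles of 94.8, 98.6 and 99.1 in replicates 1, 2 and 3. It was followed by Madd, a regulator of Rab GTPases (93.9, 98.7 and 98.9), and Tpp1, a lysosomal peptidase (92.2, 96.2 and 96.5). All 3 had their lowest percentile in replicate 1, the library with the shortest peak list, as had all other promoters among the 25 highest. Cyp4f13, a cytochrome P450, and Sytl3, a synaptotagmin-like protein of vesicle traffic, came next with means of 94.5 ± 0.733 and 93.5 ± 3.16 (SD, n = 3). Genes of immune cells among the 25 highest were H2-Aa, H2-Eb1, H2-Ab1, Ptpn7, Il2rb, Cd37, Traf3ip3, Arhgap45, Prf1, Tnfaip8l2, Trex1 and Nckap1l. Il2rb, the receptor chain shared by IL-2 and IL-15, had percentiles of 87.6, 91.3 and 96.2. Trex1, the exonuclease that clears DNA from the cytosol, had 81.5, 92.5 and 92.5. The rest of the 25 were Abcb8, Zfp983, Bak1 (a pore-forming protein of apoptosis), Baz2a (a chromatin remodeller subunit of the nucleolus), Scgb1c1, Pgs1, Msl3l2 and Cbln3, with means of 87.8 to 92.4.

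**Figure D2:**
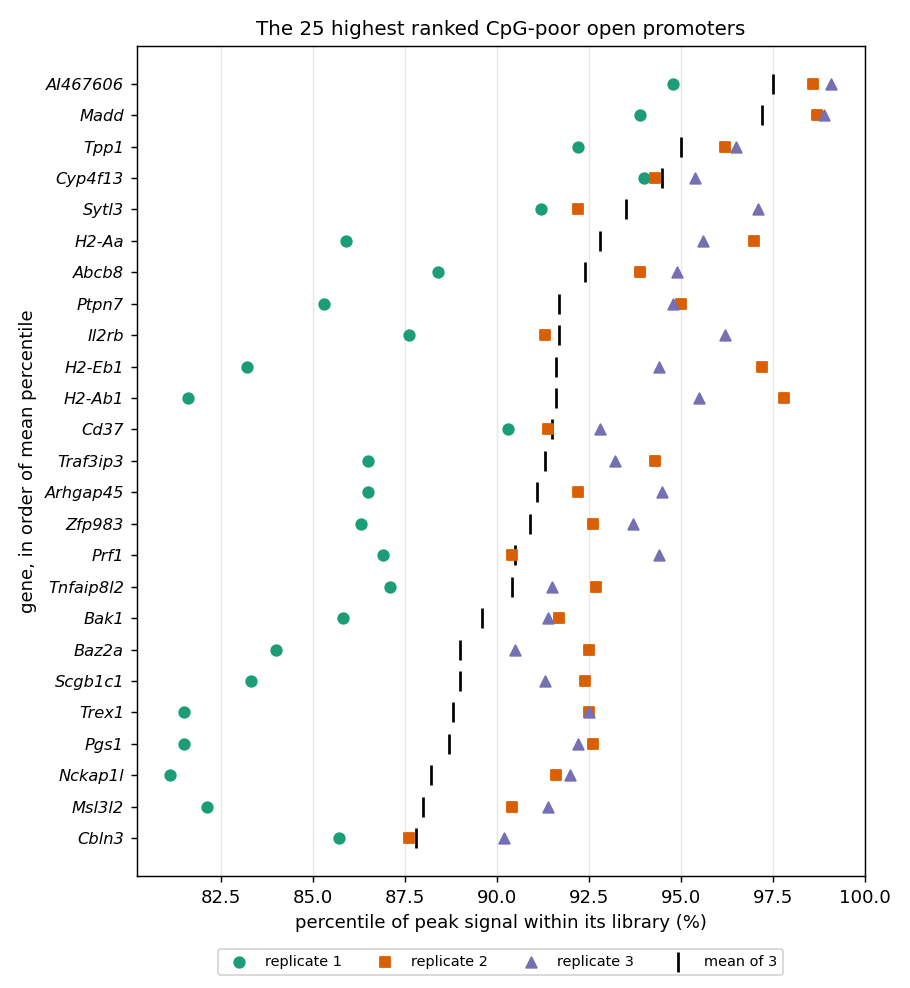
Percentile of peak signal within each library (x axis) for the 25 promoters with the highest mean percentile (y axis, top to bottom), with 1 symbol per library and a bar at the mean. Replicate 1 is the lowest library in every row, and AI467606 at the top has percentiles of 94.8, 98.6 and 99.1.

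The 5 lowest promoters were those of Zfp947 (a mean percentile of 6.50), Pon3 (12.1), 4931408C20Rik (14.6), Abcg3 (17.4) and Asb10 (19.7). Zfp947 lay at 3.57, 7.86 and 8.06 in the 3 libraries, low in each. Ranking by signal went with footprints: all of the 25 highest promoters had a shared footprint, as did 86.7% of the 90 highest. The share was 41.6%, 20.2% and 12.4% in the next 3 groups of 89 promoters. The share of genes in any of the 16 gene lists differed less, at 33.3%, 34.8%, 34.8% and 27% in the same order.

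A peak in the window was not always at the gene's own start. The annotated 5′ end lay inside the strongest peak in all 3 libraries for 188 of the 357 promoters (52.7%), against 62.5% of the CpG-rich open promoters, and in none of the libraries for 102. Among the 25 highest promoters this held in all 3 libraries for 12, and Madd, whose peak was centred 496 bp downstream, and Abcb8, Tnfaip8l2, Bak1, Baz2a, Scgb1c1, Pgs1 and Cbln3 had it in none. The peak centre, as the mean position over the 3 libraries, lay a median of 16 bp upstream (quartiles 79 bp upstream and 76 bp downstream). For 78 promoters that mean was more than 250 bp away. In 15 promoters the peaks of the 3 libraries did not all overlap, and there the mean need not lie in any peak. An annotated start of the same gene lay within 50 bp of the replicate 3 peak for 288 promoters, and another gene's start for 22, of which 7 had none of their own. For 62 no annotated start lay there. Cbln3, a synaptic cerebellin, had another gene's start at its peak, which was centred 542 bp upstream at the start of Khnyn. The peak counted for Ckm, muscle creatine kinase, lay at the start of Klc3. In 12 promoters the replicate 3 peak itself had a CpG ratio of 0.6 or more, and 46 genes had a CpG-rich start elsewhere. The 357 promoters used 349 distinct peaks of replicate 3, since 15 of them shared one, such as Igtp with Irgm2 and Gbp4 with Gbp8 and Gbp9.

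Of the genes that carry out killing, 7 of 17 CpG-poor promoters (41.2%) were open in all 3 libraries, beside 5.30% of CpG-poor promoters overall. These were Prf1, Gzmb, Nkg7 (a protein of cytotoxic granules), Fasl (the ligand of the death receptor Fas), Serpinb6b, Tnfsf10 (the death ligand TRAIL) and Ctsw (a cathepsin of cytotoxic cells). Prf1 had percentiles of 86.9, 90.4 and 94.4, and Gzmb 79.4, 83.7 and 93.2. Both were highest in replicate 3. By library, 7, 8 and 13 of the 17 had a peak in replicates 1, 2 and 3. Tnf was open in replicates 2 and 3 only, 5 promoters were open in replicate 3 only, and Gzmd, Gzme, Gzmf and Gzmg were closed in all libraries.

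Among the receptors of natural killer cells, 11 of 31 CpG-poor promoters (35.5%) were open in all 3 libraries, beside 5.30% of all CpG-poor promoters. Of the 31, 14 were closed in all libraries. Ncr1, the activating receptor NKp46 and a defining marker of the cell type, had percentiles of 77.5, 81.1 and 90.3. Klrk1, which encodes the activating receptor NKG2D, had 45.5, 50.6 and 69.5, and Klrc1, which encodes NKG2A, had 22.8, 24.4 and 36.1. All 3 were highest in replicate 3. Ly9, Tigit, Cd244a and Cd7, further receptors of lymphocytes, had mean percentiles of 76.2, 68.4, 63.8 and 56.3. Klrb1c, the gene of NK1.1, was among the closed promoters at its own 5′ end, and Klrd1 was open in 2 libraries. Of 11 Ly49 receptor genes, all CpG-poor, Klra5 and Klra1 were open in all 3 libraries and the other 9 in none. Klra1 had percentiles of 11.1, 11.4 and 37.0, among the lowest of all. The Ly49 genes are near-identical copies, on which reads can be split or lost, and the handling of such reads is not given in the sources used here.

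By number, the list with the most open promoters was that of receptor signalling, the adaptors, kinases and phosphatases that carry signals from lymphocyte receptors. It had 27 of 38 open (71.1%), beside 5.30% of all CpG-poor promoters. By share the Gimap list was higher, with 4 of 5 (80%). Ptpn7 had percentiles of 85.3, 95 and 94.8, and Cd37, a tetraspanin of leukocytes, had 90.3, 91.4 and 92.8. Ptpn22, a phosphatase that restrains Src-family kinases, had 81.4, 88.3 and 92.3. These promoters were strong in each library. The next were Sh2d2a and Lax1, adaptors, with means of 86.2 ± 4.26 and 84.7 ± 6.18 (SD, n = 3). A further 8 of the 38 were open in 2 libraries, and Ptpn6 and Sla were closed in all.

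Among soluble signals and their receptors, 7 of the 29 CpG-poor promoters of the chemokine list were open (24.1%), beside 5.30% of CpG-poor promoters overall. They were led by Ccl4, S1pr4, Ccl5, Ccr7 and Ccl3, of which S1pr4 encodes a receptor for the lipid sphingosine phosphate and not for a chemokine. Ccl4, a chemokine that activated natural killer cells release, had percentiles of 81.8, 86.6 and 91.5, and Ccl5 had 69.4, 81.8 and 88.6. Of 29 cytokine and cytokine receptor genes, 7 were also open (24.1%): Il2rb, Il21r, Il18rap, Cd27, Il15, Il18 and Csf2. Without replicate 1 the cytokine list had 14 open. Il21r, the receptor of IL-21, was far lower in replicate 1 than in the others, at 57.5, 87.6 and 87.6. Adhesion and migration genes were open at 9 of 16 CpG-poor promoters (56.2%), led by Icam2 and Itgb2 (the integrin β2 chain) with mean percentiles of 80.3 ± 10.1 and 79.2 ± 10.9 (SD, n = 3). Of the lymphocyte transcription factors, only 8 of 50 listed genes were CpG-poor, and Stat5a was the single one open in all 3 libraries, with its peak centred 356 bp from the 5′ end.

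Genes of antigen presentation were open at 9 of 13 CpG-poor promoters (69.2%), beside 5.30% of all CpG-poor promoters. The 9 were H2-Aa, H2-Eb1, H2-Ab1, Cd74 (the invariant chain that escorts class II molecules), H2-T24, H2-DMb2, H2-Ob, H2-DMb1 and Mr1. H2-Aa had percentiles of 85.9, 97 and 95.6. H2-DMb2, a chain of the peptide loader for class II, had 56.5, 94.1 and 85, and Cd74 had 69, 96.5 and 92. In all 3 genes replicate 2 was highest and replicate 1 lowest. Ciita, the class II transactivator, was closed at its own 5′ end. B cells also express class II genes, and in the B cell list 5 of 24 CpG-poor promoters (20.8%) were open in all 3 libraries: Bank1, Cd79b, Blnk, Fcrl1 and Ms4a1. Ms4a1, the gene of CD20, had percentiles of 13.2, 83.8 and 68.3, and Cd79b, a B cell receptor chain, had 20.7, 84.8 and 66.1. By library, 5, 16 and 14 of the 24 B cell promoters had a peak in replicates 1, 2 and 3, so that leaving out replicate 1 gave 14 open. The part of other cells in the open class II promoters was not tested.

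Interferon-stimulated genes were open at 20 of 38 CpG-poor promoters (52.6%), beside 5.30% of all CpG-poor promoters. Samd9l, an antiviral protein, had percentiles of 73.3, 92.1 and 93, Gbp4, a guanylate-binding GTPase, had 78.9, 88.3 and 88.3, and Rsad2, the antiviral enzyme viperin, had 73.5, 87.6 and 86.8. All were lowest in replicate 1. Igtp and Irgm2, GTPases against intracellular microbes, shared 1 peak with a mean percentile of 84.2. By family, 7 of 9 CpG-poor Gbp genes, 4 of 5 Gimap genes, 3 of 3 Parp genes, 3 of 9 Ifit genes and 7 of 28 Trim genes were open. Other families had fewer, such as 3 of 21 Ccl, 5 of 47 Zfp, 3 of 80 Cyp and 1 of 54 Serpin genes. The share of all CpG-poor promoters was 5.30%. At Parp11 and Parp16 the annotated 5′ end lay in the peak of no library. Their peak centres lay at -316 and 465 bp (upstream negative), and both genes had a CpG-rich start elsewhere. In 57 promoters another of the 357 lay within 50 kb, in groups such as those of the Gbp genes on chromosome 5, Gimap on chromosome 6, Trim on chromosome 7, Ctla2 on chromosome 13, MHC class II on chromosome 17 and Ifit on chromosome 19. The Gbp group is 3 gene models that share 1 peak, and the Gimap, Ctla2 and Ifit groups also hold models that share a peak. The same count was not made for other promoters, so whether 57 is many was not tested. The share of CpG-poor promoters open was highest on chromosomes 15 (10.2%) and 11 (9.74%) and lowest on chromosome 14 (2.34%).

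Marker lists of other lineages are read beside the same 5.30%. The T cell list had 5 of 20 CpG-poor promoters open (25%): Ccr7, Lat, Tespa1, Cd27 and Ubash3a, all of which also stand in the signalling, chemokine or cytokine lists. Cd3d and Cd3g, chains of the T cell receptor complex, were open in replicates 2 and 3 only. The myeloid list had 5 of 46 (10.9%): Cd68, Tlr4, Cd300lf, Itgam and Itgax, of which the integrins Itgam and Itgax are also known in natural killer cells. Erythroid and platelet genes had 2 of 18 (11.1%), F2rl2 and Itga2b, and genes of liver, muscle, nerve and epithelium 2 of 30 (6.67%), Ckm and Gfap. Without replicate 1 the T cell list had 10 open and the myeloid list 10. Of 1112 CpG-poor olfactory receptor genes, 327 vomeronasal receptor genes, 74 keratin and keratin-associated genes and 25 kallikrein genes, none was open in all 3 libraries.

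Near misses were set by 1 library. Of the 239 CpG-poor promoters open in 2 libraries, 230 lacked a peak in replicate 1, and 21 of those (9.13%) had an interval with a cut-rate q-value of 0.05 or less there. Of the 7 that lacked a peak in replicate 2, 5 had such an interval there. The strongest of the 239 was Ell2, a transcription elongation factor, with percentiles of 93.9 in replicate 1 and 99.0 in replicate 3 and no peak in replicate 2. Its window still held 357 bp of such intervals in replicate 2, beside 318 bp in replicate 1 and 340 bp in replicate 3. Ell2 was followed by Emp3 (85.1 in replicate 2 and 82.1 in replicate 3), H2-Eb2 (84.8 and 73.9), Akna (77.8 and 80.1) and Ncf1 (83.2 and 74.6). None of these 4 had a peak in replicate 1.

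Signal and footprints were then set against the CpG-rich open promoters within each library. The median percentile of the CpG-poor open promoters was 53.7, 75.3 and 77.5 in replicates 1, 2 and 3, against 87.7, 94.0 and 93.5 at CpG-rich ones. The bases with a cut-rate q-value of 0.05 or less in the window had a median of 329, 554 and 552 bp, against 809, 904 and 889 bp. The CpG-poor promoters were lower in every library, with a mean difference of -22.9 ± 9.69 percentile points (SD of 3 differences). Signal ranked the promoters, so this is a description with no test. For footprints, the exact two-sided sign-flip test was run over the 3 within-library differences. Its smallest possible p is 0.25, so no comparison of this kind could pass 0.05.

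At least 1 footprint overlapped the window in 81.0%, 97.5% and 98.3% of the CpG-poor open promoters, against 97.1%, 99.3% and 99.3% of the CpG-rich ones. The difference was largest in replicate 1, and the mean difference was -6.32 ± 8.50 percentage points (SD of 3 differences, exact sign-flip p = 0.25). With CpG-rich promoters weighted to the same deciles of signal as the CpG-poor ones, the difference was -5.88, 0.3 and 0.589 points in replicates 1, 2 and 3, and it had no common direction (exact p = 1). The thinnest of those deciles held 8 CpG-rich promoters. Each promoter held 2.18, 3.98 and 3.93 footprints, against 5.88, 8.34 and 7.86 at CpG-rich promoters (lower in 3 of 3 libraries, exact p = 0.25). Their median width was 8, 10 and 10 bp, against 11, 12 and 13 bp. The most shared footprints were 5 each at Tpp1, H2-Aa and Ptpn7, followed by several promoters with 4, of which AI467606, Abcb8 and Gbp4 ranked highest by signal. Etfbkmt was the single one of the 357 with no footprint in any library, and its peak was centred 605 bp from the 5′ end.

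Of the 253 shared footprints, 139 lay within 250 bp upstream of the 5′ end and 95 of these within 100 bp, while 80 lay downstream and 34 farther upstream. In the 50 bp next to the 5′ end on its upstream side, 42.2 ± 10.4% of the CpG-poor open promoters had a footprint, against 71.0 ± 6.25% of the CpG-rich ones (SD, n = 3 libraries). At 450 to 500 bp upstream it was 4.48 ± 0.970% of the CpG-poor and 6.46 ± 1.61% of the CpG-rich promoters. Both groups thus had their highest share just upstream of the start.

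**Figure D3:**
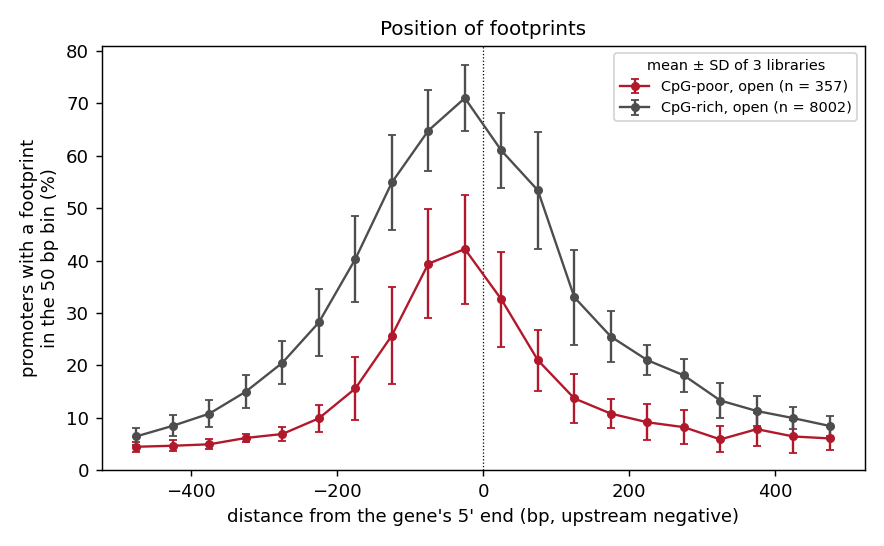
Share of promoters with a footprint in each 50 bp bin (y axis, percent, mean ± SD of 3 libraries) by distance from the gene's 5′ end (x axis, bp) for CpG-poor open promoters (red) and CpG-rich open promoters (grey). Both curves are highest in the 50 bp upstream of the 5′ end, at 42.2% and 71.0%.

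Motifs were searched as plain letters on both strands and counted where at least 50% of a match lay in a footprint of that library. A match describes letters, not a bound factor. RUNX letters were in 6.41%, 8.23% and 8.20% of the footprints at CpG-poor open promoters in replicates 1, 2 and 3, against 2.86%, 2.96% and 2.95% of those at CpG-rich ones. The share was higher in all 3 libraries, by 4.69 ± 0.989 points (SD of 3 differences, exact sign-flip p = 0.25). The windows also held RUNX letters more often, in 98.3% of the CpG-poor and 88.4% of the CpG-rich open promoters. How far this sequence difference enters the footprint share was not tested. Counted per promoter, RUNX letters in a footprint were found in 12.9%, 27.2% and 28.3% of the CpG-poor promoters, against 15.0%, 21.3% and 19.9% of the CpG-rich ones. That count was higher in 2 of 3 libraries (mean difference 4.05 ± 5.47 points, exact p = 0.5), and the mean difference was 7.12 points without replicate 1 and 1.89 points without replicate 3. With CpG-rich promoters weighted to the same deciles of signal, the share was 22.8 ± 8.59% at CpG-poor promoters, against 10.4 ± 3.47% at CpG-rich ones (SD, n = 3 libraries, higher in 3 of 3, exact p = 0.25). In footprints shared by all libraries the direction was the other way, with 3.92%, against 9.41%. These are shares of all promoters, of which 40.3% of the CpG-poor and 87.9% of the CpG-rich open ones had any shared footprint.

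ETS letters were less frequent. They were in a footprint of 10.4%, 21.8% and 21.6% of the CpG-poor open promoters, against 34.5%, 47.4% and 46.8% of the CpG-rich ones. The share was lower in all 3 libraries, with a standard deviation of 0.738 points over the 3 differences of -24.1, -25.5 and -25.2 points (exact p = 0.25). At equal deciles of signal the difference was -6.58 ± 1.95 points, again lower in all 3 libraries (exact p = 0.25). The window held the letters nearly everywhere, in 99.4% of the CpG-poor and 98.3% of the CpG-rich open promoters.

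Letters of interferon regulatory factors (GAAANNGAA) were in 1.03%, 1.41% and 1.85% of the footprints, against 0.223%, 0.306% and 0.285% at CpG-rich promoters, higher in all 3 libraries (exact p = 0.25). The windows of 33.3% of the CpG-poor open promoters held these letters, against 19.4% of the CpG-rich open ones. Only 3 promoters had them in a shared footprint: Trim21, an interferon-induced antibody receptor of the cytosol, Tapbpl, a helper of class I peptide loading, and Ifi27, an interferon-induced gene. Trim21 and Tapbpl were chosen after their values were seen. E-box letters (CANNTG), letters of the CACCC box (CCACCC) and AP-1 letters (TGANTCA) were also in more of the footprints in all 3 libraries, with means of 6.81%, 4.22% and 0.360%, against 3.77%, 2.95% and 0.0576% (exact p = 0.25 each). Whole windows held E-box letters in 99.7%, against 95.7% of the CpG-rich open promoters, and AP-1 letters in 34.2%, against 12.1%. CACCC letters stood in fewer windows, 69.5%, against 73%. Counted per promoter, E-box and CACCC letters in a footprint were lower in all 3 libraries, with mean differences of -3.23 and -5.93 points. At equal deciles of signal both were higher in all 3 libraries, by 4.43 and 1.52 points (exact p = 0.25 each). T-box letters (TCACACC) were in a footprint of 0.840%, 0% and 0.560% of the promoters, against 0.475%, 0.725% and 0.812%, with no common direction (exact p = 0.75). GC boxes (GGGCGG) were in 4.03 ± 0.396% of the footprints, against 16.3 ± 0.0938%, and NRF1 letters (GCGCNTGCG) in 0.0900 ± 0.0331%, against 3.54 ± 0.370% (SD, n = 3 libraries). Both motifs hold a CG, so their rarity follows from the choice of CpG-poor promoters. An exact match to the CTCF core letters was in a shared footprint of 3 promoters, Trim69, Hsd3b7 and Ripor3. Near matches to that core were not counted, at these or other promoters. In all, 16 motifs were compared in 3 ways (per footprint, per promoter and per promoter at equal deciles of signal), and no p-value could fall below 0.25.

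**Figure D4:**
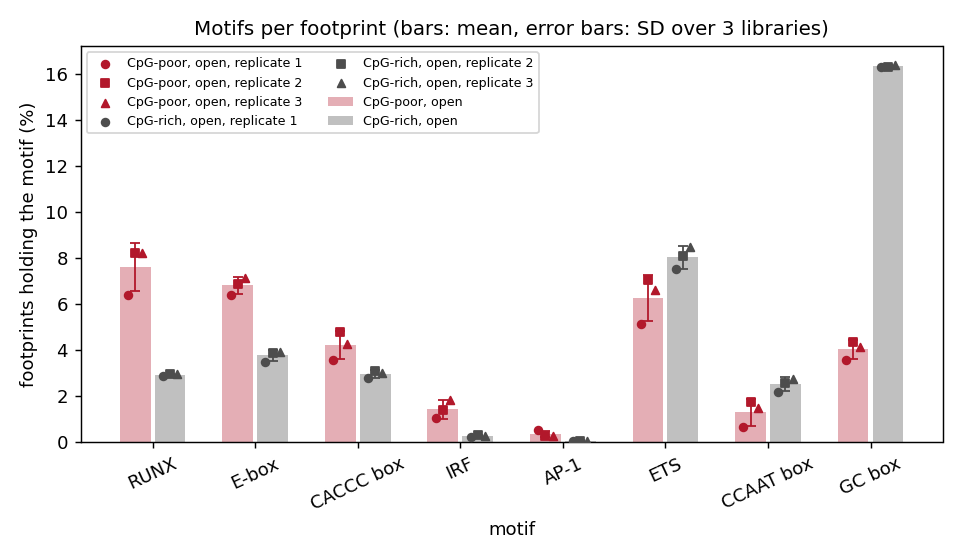
Share of footprints that hold the letters of each motif (y axis, percent), with bars at the mean, error bars of 1 SD and 1 point per library, for CpG-poor open promoters (red, left) and CpG-rich open promoters (grey, right). RUNX letters were in 7.61% of the footprints, against 2.92%, and GC boxes in 4.03%, against 16.3%.

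A TATA box 20 to 40 bp upstream of the 5′ end was found in 5 of the 357 promoters (1.40%): Ccl4, Laptm5, Ccl5, Adamtsl2 and Cym. The share was 0.575% in the CpG-rich open promoters and 5.42% in the CpG-poor promoters closed in all libraries. Laptm5 is a lysosomal protein of blood cells, and Cym encodes chymosin. Ccl4 and Ccl5 are shown above. A TATA box anywhere in the window stood in 31.7% of the 357, against 18.5% of the CpG-rich open promoters, and in 32.2% of all promoters. It stood in 56% of the CpG-poor promoters closed in all libraries.

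Replicates 2 and 3 had like numbers of peaks but differed at particular promoters. After centring on all 10044 open promoters, the log2 signal of replicate 2 minus replicate 3 had a median of -0.19 over the 357 CpG-poor promoters and 0.01 over the CpG-rich open ones. Its SD over promoters was 0.54 in the CpG-poor and 0.23 in the CpG-rich open ones. In 110 of the 357 replicate 2 was the higher. At mean percentiles of 55.6 to 80.3, the middle range of the 357, the SD was 0.61 in 179 CpG-poor promoters and 0.38 in 1163 CpG-rich ones, so the wider spread was also seen at like signal. With 1 library on each side, these differences have no replicate check.

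Replicate 2 was the higher by 1 or more on the log2 scale in 5 of the 357 promoters (1.40%), beside 34 of all open promoters (0.339%). These were Gm49392 (3.38), Cd79b (1.29), Dok3, an adaptor of B and myeloid cells (1.29), H2-DMb2 (1.20) and Ms4a1 (1.06). The signal of Ms4a1 was 0.519, 3.41 and 1.67 in replicates 1, 2 and 3. Replicate 2 was the lower by 1 or more in 20 of the 357 (5.60%), beside 41 of all open promoters (0.408%). The largest differences were at Gbp3 (-2.22), F2rl2 (-1.42), Gzmb (-1.36), Cysltr2, a leukotriene receptor (-1.30), and Lgals1, galectin-1 (-1.25). The signal of Gzmb was 2.74, 3.39 and 8.86, highest in replicate 3. At Gm49392, Gbp3 and Mndal the strongest peaks of the libraries did not overlap, so that different peaks were compared. Without such promoters 4 and 18 remained, and the SD over promoters was 0.49.

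The CpG-poor open promoters were 3.55% of all open promoters and 25 of the 75 that differed by 1 or more in either direction (33.3%). By gene list, replicate 2 was the higher in 5 of 5 B cell promoters (median 0.96) and 8 of 9 promoters of antigen presentation (median 0.47). It was the higher in 0 of 7 promoters of cytotoxic effectors (median -0.75) and 2 of 11 of natural killer receptors (median -0.84), beside a median of -0.19 over all 357. Among the 20 promoters picked as at least 1 lower in replicate 2 were Sh2d1b1, Nkg7, Xcl1, Ncr1, Cd244a and Klrk1, genes of natural killer cells (-1.24 to -1.03). In no gene list were Cysltr2, Lgals1, Ntrk3, Mndal, Lpar5, Gm17571, Samd3, Kcnk7, Soat2, Ifrd1 and Sytl3, also among the 20 (-1.30 to -1.01). In the natural killer receptor list Slamf6 (0.69) and Ly9 (0.12) were higher in replicate 2. Klrc1, Lair1, Tigit, Cd7, Klre1 and Crtam of that list were lower by less than 1 (-0.90 to -0.44).  The makeup of the cells in each library was not tested.

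**Figure D5:**
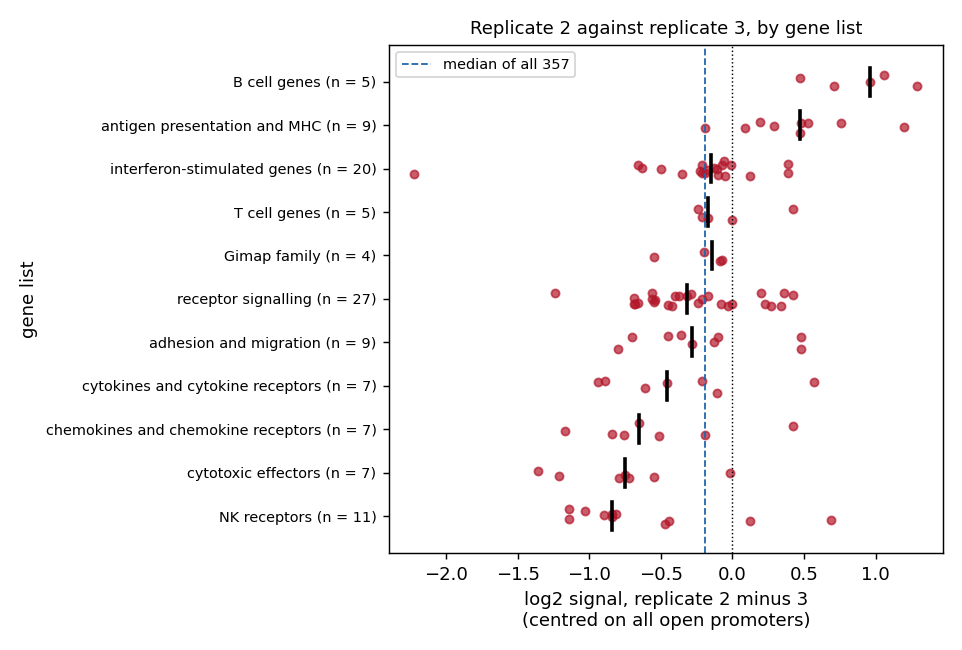
Centred log2 peak signal of replicate 2 minus replicate 3 (x axis) for each CpG-poor open promoter, in 11 gene lists (y axis), with a black bar at the median of the list and a blue dashed line at the median of all 357 (-0.19). The 5 B cell promoters all lie right of 0 and the 7 promoters of cytotoxic effectors all left of it.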

How the data were processed

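DNase-seq was measured in 3 libraries of 1 group. Per the labels and the descriptions deposited beside the files, the authors called peaks, footprints and cut-rate intervals per library on mm10. Neither an aligner nor a caller is named there. The signal of each deposited peak has no stated normalization, so it was used as a rank within its library or as a centred ratio. The cut-rate lists hold the authors' q-value of each interval, up to 0.05. The deposited footprint score is the constant 0.01, and only positions were used. Peaks came from the larger of the 2 deposited lists, and the smaller was an alternative.

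All intervals lay inside the chromosomes of GRCm38. Genes were the autosomal protein-coding ones of GENCODE mouse release M21, and sequence came from RefSeq GRCm38.p6. The window was 1001 bp. A peak or footprint counted where it overlapped by at least 1 bp, and the strongest peak in the window gave the signal. Scripts in Python 3.11.15 with numpy 2.4.6 and bedtools 2.31.1 made the overlaps and the exact sign-flip tests. The choice of promoters, the search for ETS letters in footprints and the shared footprints were tried on simulated data. The sign-flip test was not. The promoters, the 16 gene lists (618 entries) and the 16 motifs were chosen with earlier results of these data known. Named were the 25 highest and 5 lowest promoters by mean percentile, up to 5 per list, 5 each side of the CpG limit, the 5 largest differences of replicate 2 from replicate 3 in each direction, the 6 with the most shared footprints (ties by rank), those without footprints and 5 near misses. Any other gene named was chosen after its values were seen. Alternatives changed the CpG limit, window, peak list, gene models, footprint rules and libraries.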

Additional observations from a re-analysis of the deposited data

How the results depend on the processing

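Of 63 alternatives over 8 results, 10 moved, 1 reversed and 52 did neither. Some of the 52 kept only the sign: the footprint difference lay between -21.6 and -1.66 points, that of RUNX letters between 1.89 and 7.12 and that of TATA boxes between 0.611 and 2.01. The 357 promoters became 587 without replicate 1, and the range on leaving out each replicate was 359 to 587. They became 188 where the own 5′ end had to lie inside each peak, an alternative chosen after seeing the data. The share of CpG-poor promoters open was 4.39% and 6.56% with limits of 0.25 and 0.35, 4.59% with 250 bp on each side, 3.80% with the smaller peak list, 5.93% without gene models named Gm or Rik, and 5.33% to 8.71% on leaving out each replicate. The difference in the share of promoters with RUNX letters in a footprint reversed to -5.49 points in shared footprints, and the cause was not tested. The median log2 difference of replicates 2 and 3 was 0.00 when centred on the 357 themselves, by construction, and -1.43 as percentile points, another scale. The differences in percentile, footprints and ETS letters kept the sign of their mean under all 31 of their alternatives. No paired analysis was possible because there is 1 group. Read depth is unknown, so no counting intervals are given, and the few peaks of replicate 1 limit the number of promoters open in all 3 libraries and most of the list counts.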
